A study of Mus musculus with 6 samples.

Results

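The genes described here are 10 genes that T cells transcribe in response to their antigen receptor: the nuclear receptor genes Nr4a1, Nr4a2 and Nr4a3, the zinc finger genes Egr1, Egr2 and Egr3, the corepressor gene Nab2, the repressor gene Zbtb32, the surface receptor gene Cd69 and the transcription factor gene Nfatc1. They were taken by symbol from a table of 21139 genes, and all 10 were found in it once. They were chosen by their fold changes between these very libraries, so the values of the comparison below describe the genes and carry no test of them. RNA was sequenced from 6 libraries of CD4+ T cells from spleens of C57BL/6J mice, with no mutant allele named in the labels. In 3 libraries the cells had received CpdA, an agonist of Gpr120 according to the series' design, at a labelled dose of 20 with the unit written as microm. In the other 3 libraries they had medium alone. In every library the cells had been kept with anti-CD3 and anti-CD28, which stand in for antigen and costimulation, for 2 days. The comparison asks which transcripts differ with the agonist. The labels name no vehicle. They do not say either whether replicate libraries trace to different mice or culture wells, so the p-values given here cover the spread among these libraries alone, which may be technical.

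Binding of the antigen receptor opens a calcium route, in which calcineurin releases NFAT proteins into the nucleus, and a RAS and ERK route, which acts on promoters through the serum response factor and its ETS partners. Both switch on the NR4A and EGR genes soon after the receptor is bound, before new proteins are made. NR4A proteins are nuclear receptors without a known natural ligand that is needed for their activity, and EGR proteins bind GC-rich sites through zinc fingers. In T cells both families are known for limiting the response they are induced by, in anergy, in exhaustion and in regulatory T cells. NAB2 binds EGR proteins and represses their activity, and EGR factors in turn induce Nab2.

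The promoters of the NR4A genes are shown first because each holds several copies of a short element. RefSeq promoter windows on GRCm38.p6, running from 250 bases before to 50 bases after a transcription start, were found for 6 of the 10 genes (Nr4a1, Nr4a2, Nr4a3, Egr2, Nab2 and Zbtb32). The core of the cAMP response element (CRE), spelled TGACG and searched on both strands, occurred 4 times in the window of each of Nr4a1, Nr4a2 and Nr4a3. Of all 32851 windows, 20.8% held at least 1 such core and 0.231% held at least 4. In the 150 bases directly before the start, the number was 2 for Nr4a1, 3 for Nr4a2 and 1 for Nr4a3, where 13.3% of all windows held at least 1, 2.73% at least 2 and 0.381% at least 3. Capitals mark the core, as TGACG or as its reverse complement CGTCA.
Nr4a1, chr15:101266596-101266895, plus strand: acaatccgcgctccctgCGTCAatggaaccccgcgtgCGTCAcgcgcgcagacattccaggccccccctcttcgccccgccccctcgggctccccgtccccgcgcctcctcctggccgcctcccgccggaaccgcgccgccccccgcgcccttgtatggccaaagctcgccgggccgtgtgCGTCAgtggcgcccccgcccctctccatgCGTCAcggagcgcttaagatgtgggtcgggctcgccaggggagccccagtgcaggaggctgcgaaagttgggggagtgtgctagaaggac
Nr4a2, chr2:57123954-57124253, minus strand: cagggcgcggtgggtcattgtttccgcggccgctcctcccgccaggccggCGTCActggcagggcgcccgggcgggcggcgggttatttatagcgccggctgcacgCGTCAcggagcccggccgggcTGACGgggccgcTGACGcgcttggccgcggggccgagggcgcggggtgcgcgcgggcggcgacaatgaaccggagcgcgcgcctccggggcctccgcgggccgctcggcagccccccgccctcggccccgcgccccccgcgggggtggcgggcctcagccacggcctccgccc
Nr4a3, chr4:48045055-48045354, plus strand: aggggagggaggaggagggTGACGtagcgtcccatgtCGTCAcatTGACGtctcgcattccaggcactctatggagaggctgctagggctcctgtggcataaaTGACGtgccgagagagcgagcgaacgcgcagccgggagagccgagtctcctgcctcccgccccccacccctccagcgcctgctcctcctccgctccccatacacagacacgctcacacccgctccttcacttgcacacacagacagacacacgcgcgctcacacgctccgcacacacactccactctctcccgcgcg

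GC made up 72.3% of the Nr4a1 window, 81.7% of the Nr4a2 window and 64.7% of the Nr4a3 window, against a median of 52.7% over all windows. The CRE core holds the letters CG, and the shares given are over all windows and were not matched for GC. None of the 3 held the full palindrome TGACGTCA, which 1.79% of windows held and which would count as 2 overlapping cores. Of the other motifs searched on both strands, the EGR site GCGNGGGCG occurred once each in the Nr4a1 and Nr4a2 windows and not in that of Nr4a3 (5.55% of all windows). The NR4A site AAAGGTCA (1.51% of windows) and the AP-1 site TGANTCA (7.81%) were found in 0 of the 3 windows. Egr2 had 5 windows, of which 3 overlap at 1 start region. That region lies inside the span of the deposited gene model, which starts at 67535475. The window that holds the model's start (chromosome 10, 67535249 to 67535548) held 0 of the motifs searched. The first of the 3 overlapping windows held 2 CRE cores and a CArG box, the site of the serum response factor. At least 2 such cores were held by 5.01% of all windows and a CArG box by 1.63%. It is printed for comparison, with the CRE cores in capitals.
Egr2, chr10:67537619-67537918, plus strand: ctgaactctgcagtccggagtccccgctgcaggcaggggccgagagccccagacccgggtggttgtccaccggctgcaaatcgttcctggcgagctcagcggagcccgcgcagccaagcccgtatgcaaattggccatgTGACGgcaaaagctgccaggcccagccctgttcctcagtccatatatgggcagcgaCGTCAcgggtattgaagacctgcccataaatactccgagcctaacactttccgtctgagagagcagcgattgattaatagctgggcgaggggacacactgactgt

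The windows of Nab2 and Zbtb32 (1 and 2 windows) held 0 CRE cores. The Nab2 window (chromosome 10, 127666654 to 127666953) lies inside the span of the gene, whose start on the minus strand is at 127668568. The NFAT core GGAAA occurred once in the Nr4a2 window and once in the printed Egr2 window, and 61.3% of all windows held it. An Egr2 window that starts before the printed one (chromosome 10, 67537316 to 67537615) held 3 NFAT cores, a CArG box and 0 CRE cores. At least 3 NFAT cores were held by 9.42% of all windows. These matches are letters in a window: no binding was measured here, and a site outside the window was not searched.

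Library totals lay between 20247761 and 25952169 counts. Levels are given as CPM, counts scaled to a common library total, where 0 counts in the shallowest library allow up to 0.148 CPM (3 counts, for counting error only). Chi-square over degrees of freedom was 10.8 to 18.7 for pairs from different groups and 2.18 to 4.18 for pairs from the same group, so replicate libraries were not copies of each other. The 10 marker genes listed for CD4 T cells, led by Cd5, Cd2 and Lck, summed to 3307 ± 40.8 CPM with CpdA and 3378 ± 31.1 CPM in medium (SD, n = 3 each). Of the 10, Cd5 and Cd2 alone had a higher mean with CpdA. Cd5 had 638 CPM with CpdA and 573 CPM in medium, and Cd2 526 CPM with CpdA and 489.8 CPM in medium. The other means were lower with CpdA, that of Cd4 at 334 CPM against 380.2 CPM in medium. Cd3e had 168 CPM with CpdA and 201 CPM in medium, and Cd3g 141 CPM with CpdA and 162 CPM in medium. Cd3d had 190 CPM with CpdA and 205 CPM in medium, and Trac 126 CPM with CpdA and 144 CPM in medium. The groups of Cd4, Cd3e, Cd3g, Cd3d and Trac did not overlap, as was the case for 43.9% of all tested genes. B cells, which also use Egr and Nr4a genes, had markers summing to between 27.6 and 32.4 CPM with CpdA and between 26.5 and 32.1 CPM in medium. CD8 T cell markers summed to 8.55 CPM with CpdA and 8.31 CPM in medium, and NK cell markers to 2.08 CPM with CpdA and 2.17 CPM in medium. Ncr1, which defines NK cells, was at 0.0156 CPM with CpdA and 0.0287 CPM in medium, and Klrb1c and Klra8 were at 0 in the CpdA libraries. Most of the NK sum came from Eomes (1.34 CPM with CpdA, 1.24 CPM in medium) and Klrd1 (0.724 CPM with CpdA, 0.826 CPM in medium). Of the macrophage list 5 of 6 genes were in the table, and of the neutrophil list 2 of 4. Sums of the macrophage (4.35 to 4.62 with CpdA, 5.29 to 6.17 CPM in medium), dendritic cell (6.86 to 8.22 with CpdA, 6.12 to 6.56 CPM in medium) and neutrophil lists (5.93 to 6.35 with CpdA, 7.35 to 8.30 CPM in medium) did not overlap between the groups, and each was below the level of every one of the 10 genes. Csf1r, Cd14 and Lyz2, which define macrophages, stayed at 0.105 CPM or less on average in both groups. Cd68, which carried most of that list's sum, had 3.92 CPM with CpdA and 5.05 CPM in medium, and Itgam had 0.276 CPM with CpdA and 0.628 CPM in medium. The part of these cells in the results was not tested. No list differed after adjustment over the 8 lists (lowest adjusted p = 0.267, exact permutation test, two-sided, where 0.1 is the smallest unadjusted p this design allows).

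The NR4A genes were all lower with CpdA, Nr4a3 and Nr4a2 far more than Nr4a1. Nr4a3 (chromosome 4, 48045153 to 48086447, plus strand, GRCm38), whose protein is also called NOR1, had 27.7, 29.7 and 28.8 CPM in the CpdA libraries, against 52.5, 57.3 and 58.2 CPM in the medium libraries. Every CpdA library lay far below every medium library. The means were 28.7 ± 1.03 CPM with CpdA and 56.0 ± 3.03 CPM in medium (SD, n = 3 each), a ratio of 0.513 and a log2 fold change of -0.97 ± 0.05 (SE, edgeR). Of all 13507 genes tested, 1.58% changed by as much or more in either direction.

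Nr4a2 (chromosome 2, 57106830 to 57124003, minus strand), which codes for NURR1, had 30.5, 30.6 and 30.6 CPM in the CpdA libraries, against 52.2, 48.2 and 49.5 CPM in the medium libraries. The CpdA libraries were nearly identical, and the gap to the lowest medium library was 35.1% of the medium mean. Its log2 fold change was -0.72 ± 0.05 (SE). Nr4a1 (chromosome 15, 101266846 to 101274792, plus strand), which codes for NUR77, a reporter of antigen receptor signals in wide use, had 136, 137 and 139 CPM with CpdA, against 149.6, 155 and 148 CPM in medium. The groups did not overlap either, but the gap was 5.42% of the medium mean, and the log2 fold change of -0.14 ± 0.03 (SE) was of a size that 49.7% of all tested genes reached or passed. In bulk RNA, fewer cells that express a gene and less RNA per expressing cell cannot be told apart. The annotation lists no gene that overlaps these 3.

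**Figure D1:**
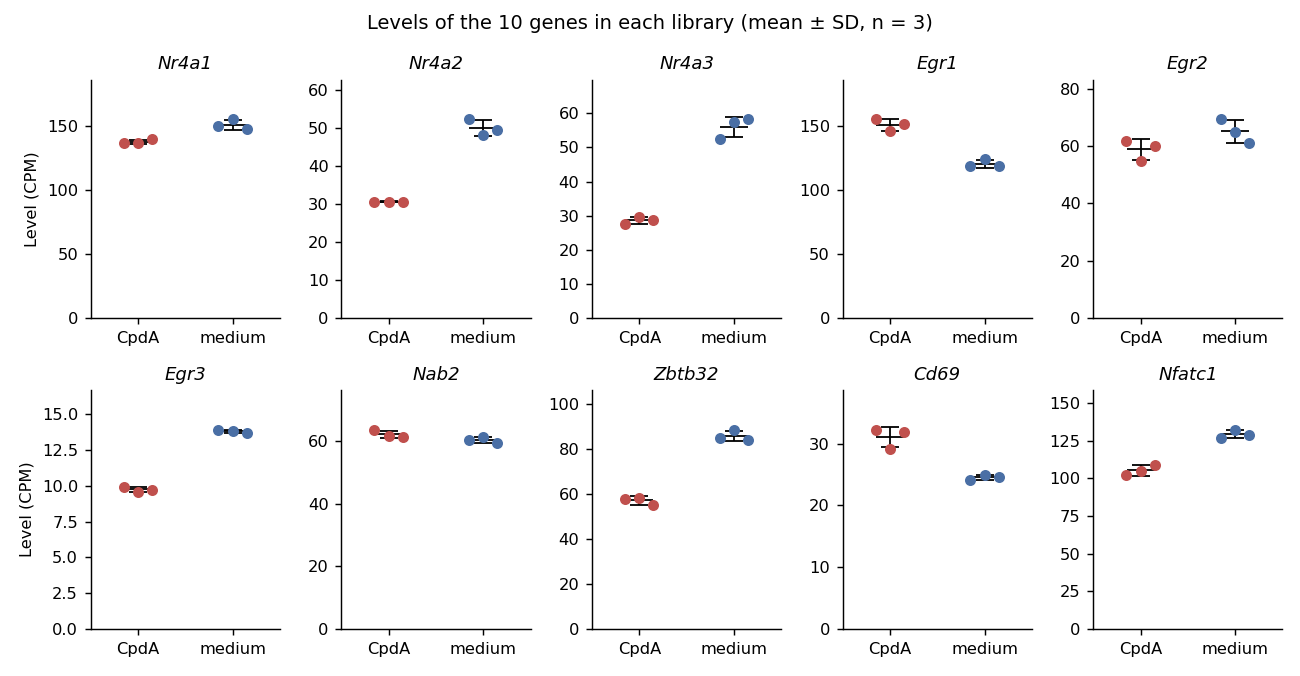
Levels of the 10 genes in CPM (vertical axes, each starting at 0) in the CpdA libraries (red, left) and the medium libraries (blue, right). Points are libraries, and bars are the mean ± SD of 3. Nr4a3, Nr4a2, Egr3 and Zbtb32 lie well below medium with CpdA, Egr1 and Cd69 lie above it, and the groups of Egr2 overlap.

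The EGR genes went different ways. Egr1 (chromosome 18, 34859823 to 34864984, plus strand), an immediate early factor, had 155, 146 and 151 CPM in the CpdA libraries, against 119, 124 and 118 CPM in the medium libraries. Each CpdA library was above each medium library, with a log2 fold change of 0.31 ± 0.03 (SE). Egr3 (chromosome 14, 70077445 to 70080157, plus strand), a factor tied to T cell anergy together with Egr2, had 9.90, 9.59 and 9.72 CPM with CpdA, against 13.9, 13.8 and 13.7 CPM in medium. Here the order was the opposite one, with a log2 fold change of -0.51 ± 0.09 (SE). Egr2 (chromosome 10, 67535475 to 67542188, plus strand), needed for peripheral tolerance, had 61.8, 54.7 and 60.0 CPM with CpdA, against 69.2, 64.9 and 61.2 CPM in medium. CpdA replicate 1 lay above medium replicate 3, so the groups overlapped, and the log2 fold change was -0.16 ± 0.05 (SE). Without CpdA replicate 2 it was -0.10 and without medium replicate 1 it was -0.11, and in both cases Egr2 was no longer past the threshold. The fourth gene of the family, Egr4, was near the limit of detection, with 11, 30 and 18 counts in the CpdA libraries, against 11, 10 and 7 counts in the medium libraries. Its log2 fold change of 0.93 did not pass (edgeR adjusted p = 0.0781), though it did without CpdA replicate 1 (1.15, edgeR adjusted p = 0.0473). Without CpdA replicate 2 the log2 fold change of Egr4 was 0.55 (edgeR adjusted p = 0.416).

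The deposited gene model of Egr3 has 1416 bases, against 4406 exon bases over all transcripts of the gene in GENCODE M21, and that of Cd69 has 1621 against 6509. Smaller differences of this kind held for Nfatc1 (4896 against 7469), Nr4a1 (2474 against 3509), Zbtb32 (1775 against 2357), Nr4a2 (3568 against 4059), Egr2 (2965 against 3398), Nab2 (2582 against 2941) and Nr4a3 (5720 against 5987), while Egr1 has 4484 bases in both. Levels per length and shares of a family depend on these models.

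Nab2, the corepressor, stayed close to medium while its relative Nab1 rose. Nab2 (chromosome 10, 127660918 to 127668568, minus strand) had 63.6, 61.7 and 61.5 CPM in the CpdA libraries, against 60.3, 61.4 and 59.5 CPM in the medium libraries. The groups did not overlap, by a gap of 0.268% of the medium mean, and the log2 fold change of 0.03 ± 0.04 (SE) has a 95% interval of -0.05 to 0.12. Its exons share 40 bases with Stat6, 151 with Nemp1 and 1050 with Gm16229, all on the opposite strand, and no source states whether counting used strand, so reads of these genes and its own cannot be told apart. Stat6, the signal transducer of the IL-4 receptor, fell by 0.21 on the log2 scale (227 ± 3.85 CPM with CpdA, 262 ± 3.17 CPM in medium, edgeR adjusted p = 2.66e-07). Nab1, the second corepressor of EGR proteins, rose by 0.20 (79.4 ± 3.61 CPM with CpdA, 68.6 ± 0.238 CPM in medium, edgeR adjusted p = 3.05e-04).

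Zbtb32 (chromosome 7, 30589681 to 30598909, minus strand), also called repressor of GATA, was lower with CpdA. It had 58.1, 58.4 and 55.1 CPM in the CpdA libraries, against 84.9, 88.5 and 84.2 CPM in the medium libraries. The 2 sets lay far apart, with a mean ratio of 0.666 and a log2 fold change of -0.60 ± 0.04 (SE). Nfatc1 (chromosome 18, 80606205 to 80713071, minus strand), the NFAT gene that is itself induced by NFAT, had 102, 105 and 109 CPM with CpdA, against 127, 132 and 129 CPM in medium. It was lower in every CpdA library, with a log2 fold change of -0.31 ± 0.04 (SE). An antisense gene lies within Nfatc1 but shares 0 exon bases with it. Cd69 (chromosome 6, 129267324 to 129275369, minus strand), a lectin-like receptor of newly activated lymphocytes that holds S1PR1 inside the cell, had 32.2, 29.2 and 31.9 CPM with CpdA, against 24.2, 24.9 and 24.7 CPM in medium. It was higher in every CpdA library, with a log2 fold change of 0.33 ± 0.06 (SE).

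In the fit across all genes, with edgeR's quasi-likelihood test and an adjusted p under 0.05, 2 of the 10 genes were past the threshold as higher, Egr1 and Cd69, where 16.5% of all tested genes were. Another 7 were past it as lower, where 16.7% of all tested genes were. Nab2 was not past it. The values of 9 of the 10 did not overlap between the groups, as was the case for 43.9% of all tested genes. Since these fold changes led to the choice of the genes, nothing is read from the counts. The median log2 fold change of the 10 was -0.23, against 0.000398 over all tested genes, and the median size without sign was 0.32 against 0.14. All 10 passed the filter on low counts.

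**Figure D2:**
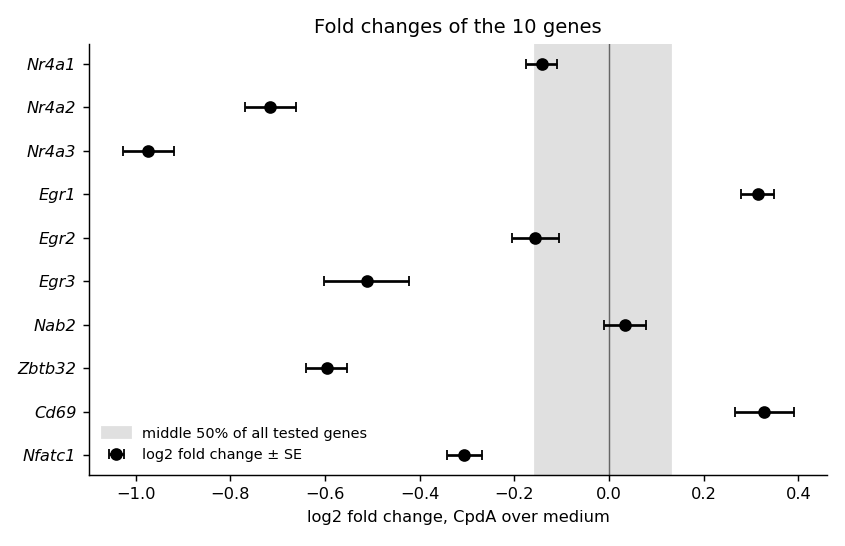
The log2 fold change of each gene, CpdA over medium (horizontal axis), with its SE from the edgeR fit as bars and the middle 50% of all tested genes (-0.16 to 0.13) in grey. Nr4a3, Zbtb32, Nr4a2 and Egr3 lie at -0.51 or further left, Egr1 and Cd69 lie at 0.31 and 0.33 on the right, and Nr4a1 and Nab2 lie inside the grey band.

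Per length of transcript, in the authors' FPKM, the order of the genes shifted between the groups. With CpdA the order from the top was Nr4a1 (55.6 ± 0.697 FPKM), Egr1 (33.6 ± 1.02), Zbtb32 (32.2 ± 1.02), Nab2 (24.1 ± 0.444), Nfatc1 (21.5 ± 0.706), Egr2 (19.8 ± 1.25), Cd69 (19.2 ± 1.01), Nr4a2 (8.57 ± 0.0207), Egr3 (6.88 ± 0.110) and Nr4a3 (5.02 ± 0.180), all as mean ± SD over 3 libraries. The libraries of Egr1 and Zbtb32 overlapped in this order, as did those of Egr2 and Cd69, and the lowest of Nfatc1 and the highest of Egr2 both stood at 20.9 FPKM. In medium the order was Nr4a1 (60.9 ± 1.54 FPKM), Zbtb32 (48.4 ± 1.30), Egr1 (26.8 ± 0.670), Nfatc1 (26.4 ± 0.504), Nab2 (23.4 ± 0.366), Egr2 (22.0 ± 1.36), Cd69 (15.2 ± 0.230), Nr4a2 (14.0 ± 0.576), Nr4a3 (9.79 ± 0.530) and Egr3 (9.74 ± 0.0657). Here the libraries of Egr1 and Nfatc1 overlapped, those of Nab2 and Egr2, and those of Nr4a3 and Egr3. Zbtb32 and Egr1, parted by a wide margin in medium, thus stood side by side with CpdA.

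The make-up of each family moved accordingly. The 3 NR4A genes together summed to 68.52, 68.98 and 69.99 FPKM in the CpdA libraries, against 84.3, 86.2 and 83.7 FPKM in the medium libraries. Nr4a1 held most of this sum in every library: 80.3% ± 0.280 with CpdA and 71.9% ± 0.722 in medium (SD, n = 3 each). Nr4a3 held 7.26% ± 0.244 with CpdA and 11.6% ± 0.628 in medium, and Nr4a2 held 12.4% ± 0.115 with CpdA and 16.5% ± 0.845 in medium. The sum of Egr1, Egr2 and Egr3 did not part the groups, with 62.4, 57.7 and 60.8 FPKM with CpdA, against 59.6, 59.2 and 56.7 FPKM in medium. Its parts did: Egr1 held 55.7% ± 0.521 with CpdA and 45.8% ± 1.27 in medium, and Egr3 held 11.4% ± 0.284 with CpdA and 16.6% ± 0.350 in medium. These shares carry no test. A higher Egr1 and a lower Egr2 and Egr3 thus added up to nearly the same total.

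**Figure D3:**
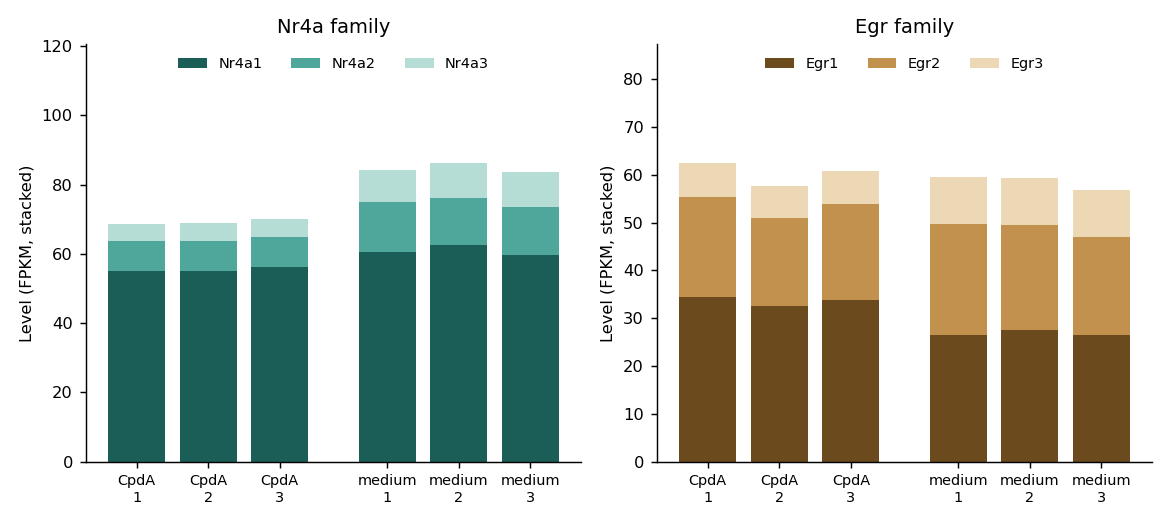
Stacked levels in FPKM (vertical axis, from 0) of the NR4A genes (left panel) and of Egr1, Egr2 and Egr3 (right panel) in each library, CpdA libraries on the left of each panel. The NR4A stack is lower with CpdA (68.5 to 70.0 against 83.7 to 86.2 FPKM), while the EGR stacks overlap in height and differ in the part that Egr1 fills.

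In the list of the calcium route that leads to NFAT, the share of genes past the threshold was near that of all tested genes. Of 26 tested genes of this list (27 listed, Homer2 under the filter), 2 were higher and 8 lower with CpdA at an adjusted p under 0.05 (edgeR), 38.5% in all, where 33.2% of all tested genes passed. The list's median log2 fold change was -0.05. Calm2, a calmodulin gene, rose by 0.18 (222 ± 9.31 CPM with CpdA, 195 ± 5.10 CPM in medium). Plcg1, the phospholipase that opens the calcium route, fell by 0.25 (211 ± 3.23 CPM with CpdA, 249 ± 5.12 CPM in medium), Itpr2, an IP3 receptor of the calcium store, by 0.22, Rcan3, a calcineurin regulator, by 0.17, and Gsk3b, a kinase that drives NFAT out of the nucleus, by 0.15. The other NFAT genes did not pass: Nfatc2 had a log2 fold change of 0.06 (edgeR adjusted p = 0.172) and Nfatc3 of -0.02 (0.645). Rcan1, itself a target of NFAT, had 5.64 ± 1.07 CPM with CpdA and 7.01 ± 0.847 CPM in medium, a log2 fold change of -0.31 that did not pass (edgeR adjusted p = 0.0667) but did without CpdA replicate 2 (-0.47, edgeR adjusted p = 0.0111) or without medium replicate 2 (-0.38, edgeR adjusted p = 0.0433). Without CpdA replicate 1 its value was -0.20 (edgeR adjusted p = 0.309) and without medium replicate 3 it was -0.21 (edgeR adjusted p = 0.342). The lower genes numbered 5 without CpdA replicate 1.

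In the list of the RAS, ERK and SRF route, 2 of 20 tested genes were higher and 4 lower, 30% in all, against 33.2% of all tested genes, with a median log2 fold change of -0.00184. Hras rose by 0.34 (36.0 ± 1.63 CPM with CpdA, 28.1 ± 3.86 CPM in medium). All 3 ternary complex factor genes, the ETS partners of the serum response factor, were lower, with log2 fold changes of -0.18 for Elk4, -0.14 for Elk3 and -0.24 for Elk1. Srf itself had 0.07 (edgeR adjusted p = 0.219), between 0.019 without medium replicate 1 and 0.11 without medium replicate 2. Map2k1, a kinase gene of the route, was at -0.10. Several of these calls did not pass with a library left out, which also makes a group smaller, though their direction stayed. Elk3 was lost without CpdA replicate 2 (-0.11, edgeR adjusted p = 0.0608) and without medium replicate 3 (-0.13, 0.0555). Without CpdA replicate 1, Elk1 (-0.18, edgeR adjusted p = 0.0867) and Map2k1 (-0.08, 0.0752) were lost and 2 genes of the list were lower. Without medium replicate 2 or 3, 1 gene was higher.

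Other early and receptor-response genes went both ways. Of 37 tested genes (38 listed, Xcl1 under the filter), 12 were higher and 14 lower, 70.3% in all, against 33.2% of all tested genes. Earlier results of these data, such as the fold change of Tnfrsf9, were known when the lists were written, so this share carries no test. Klf10, a zinc finger gene induced early, rose by 0.55 (17.5 ± 0.648 CPM with CpdA, 11.8 ± 0.871 CPM in medium), Nfkbid, an atypical inhibitor of NF-kB that receptor signals induce, by 0.32, Cd44, an adhesion receptor of activated cells, by 0.25 and Dusp2, a phosphatase of MAP kinases, by 0.23. The costimulatory receptor gene Tnfrsf9 fell by 0.64 (733 ± 25.5 CPM with CpdA, 1136 ± 28.6 CPM in medium), Ier3, an early response gene, by 0.45, Bhlhe40, a repressor tied to T cell cytokine output, by 0.44 and the AP-1 gene Fosl2 by 0.28. Irf4, which rises with the strength of the receptor signal, had 1140.1 ± 12.6 CPM with CpdA and 1118 ± 11.6 CPM in medium, a log2 fold change of 0.02 (edgeR adjusted p = 0.631). Myc rose by 0.11 (edgeR adjusted p = 0.0136). It missed the threshold without CpdA replicate 1 (0.09, edgeR adjusted p = 0.0702) or 3 (0.09, 0.106) and without medium replicate 1 (0.09, 0.0927) or 3 (0.10, 0.0609).

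Genes reported elsewhere as targets of EGR2 and EGR3 in T cells were mostly lower. Of 18 tested genes (19 listed, Ccl1 under the filter), 13 fell and 0 rose, against 16.7% and 16.5% of all tested genes, and the list's median log2 fold change was -0.34. At an unadjusted p under 0.05, 1 gene was higher, and DESeq2 and limma-voom each found 0 higher genes. The number was 1 without CpdA replicate 1 and without medium replicate 2. Lag3, an inhibitory receptor gene, fell by 0.82 (138 ± 2.15 CPM with CpdA, 242 ± 6.22 CPM in medium), Ndrg1, a factor of clonal anergy that hypoxia also induces, by 0.48 and Sema7a, a semaphorin gene, by 0.40. Tnfrsf9, given above, is also in this list. The list was written with the fold changes of Lag3, Tnfrsf9, Ndrg1 and Cdkn1a known, so it is no independent evidence of its direction. Egr1, which binds the same kind of site, was higher in the same libraries. The part of any EGR protein in these values was not tested.

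In the list of reported NR4A targets and partners, 8 of 14 tested genes fell and 1 rose, against 16.7% and 16.5% of all tested genes. The list's median log2 fold change was -0.29. It pools targets with partners and sets no direction for any gene, so a lower gene is not read as following the NR4A genes. Il2, at a low level, fell most, by 0.81 (2.09 ± 0.438 CPM with CpdA, 3.59 ± 0.632 CPM in medium). The inhibitory receptor genes Ctla4 (616 ± 31.6 CPM with CpdA, 816 ± 33.6 CPM in medium) and Tigit fell by 0.41 and 0.32, and Pdcd1, which codes for PD-1, by 0.28. Ccr7, a homing receptor gene of naive cells, fell by 0.32 and Runx1, a transcription factor gene, by 0.30. Rxra, whose product pairs with NUR77 and NURR1, rose by 0.36 (24.5 ± 2.22 CPM with CpdA, 18.9 ± 1.98 CPM in medium). Foxp3, which NR4A proteins activate in the thymus, had a log2 fold change of -0.09 (edgeR adjusted p = 0.551), between -0.18 without CpdA replicate 3 and -0.022 without medium replicate 2. Tox had a log2 fold change of -0.18 (edgeR adjusted p = 0.435) at 3.24 ± 0.193 CPM with CpdA and 3.63 ± 0.147 CPM in medium. Values of Ctla4, Tigit, Pdcd1, Ccr7, Foxp3 and Il2 were known when this list was written. The part of any NR4A protein in these values was not tested.

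The last list holds partners of CD69, ZBTB32 and Nab2. Of its 9 tested genes 3 rose and 3 fell, against 16.5% and 16.7% of all tested genes, with a median log2 fold change of -0.02. The type 2 cytokine genes Il13 and Il4, which GATA3 drives, were both higher. Il13 rose by 0.72 (191 ± 0.681 CPM with CpdA, 115 ± 3.25 CPM in medium). Il4 rose by 0.68 (36.8 ± 1.47 CPM with CpdA, 22.9 ± 0.185 CPM in medium). A link of these values to that of Zbtb32 was not tested. Values of Il4, Il13 and Gata3 were known when this list was written. Gata3 rose by 0.12, and not past the threshold without medium replicate 1 (0.09, edgeR adjusted p = 0.0603). S1pr1, whose protein CD69 binds, had 37.9 ± 3.00 CPM with CpdA and 38.2 ± 1.18 CPM in medium (log2 fold change -0.02, edgeR adjusted p = 0.865), and its regulator Klf2 had -0.15 (0.366), between -0.23 without CpdA replicate 1 and -0.075 without CpdA replicate 2. S1pr4, a relative, fell by 0.24. Zbtb16, which codes for PLZF, a family member of ZBTB32, fell by 0.74 at a low level (2.05 ± 0.283 CPM with CpdA, 3.44 ± 1.11 CPM in medium). It missed the threshold without medium replicate 1 (-0.61, edgeR adjusted p = 0.0512) or 3 (-0.58, 0.0721).

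**Figure D4:**
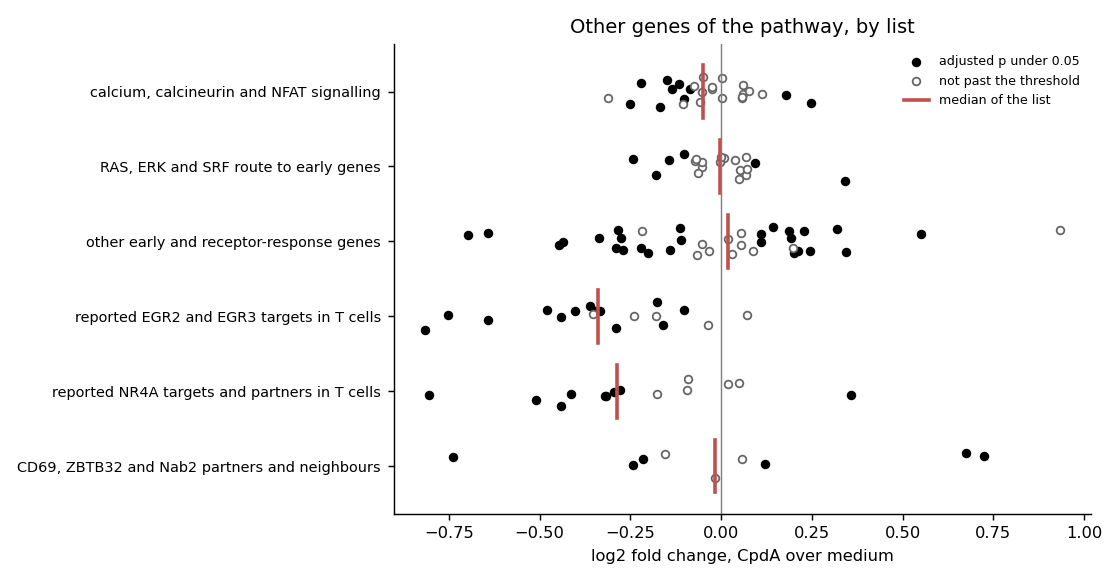
The log2 fold change, CpdA over medium (horizontal axis), of each tested gene in the 6 lists (vertical axis). Filled points passed an adjusted p under 0.05 in the edgeR fit, open points did not, and red bars are list medians, at -0.34 for the reported EGR2 and EGR3 targets and between -0.05 and 0.02 for the calcium, RAS and early gene lists. Scatter within a list has no meaning.

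Among the 6752 other tested genes above the median expression, those whose profile over the 6 libraries lay nearest to that of Nr4a3 were Selenbp1, Sema4f, Plek, Crabp2, Bend4 and Mt2. Their root mean square distance from Nr4a3, in log2 CPM after centring each gene on its own mean, was 0.0651 for Selenbp1 and 0.103 for Mt2, the sixth. All 6 parted the groups by a like amount, with log2 fold changes from -1.10 for Crabp2, a retinoic acid binding protein gene, to -0.82 for the metallothionein gene Mt2. Selenbp1 codes for a selenium binding protein, Sema4f for a semaphorin and Plek for pleckstrin, a substrate of protein kinase C. With 2 groups the distance follows mostly the difference between them. Within the NR4A family, Nr4a2 lay at a distance of 0.152 and Nr4a1 at 0.418. Of the other genes described here, Zbtb32 (0.197) and Egr3 (0.241) came next and Cd69 (0.654) lay farthest.

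**Figure D5:**
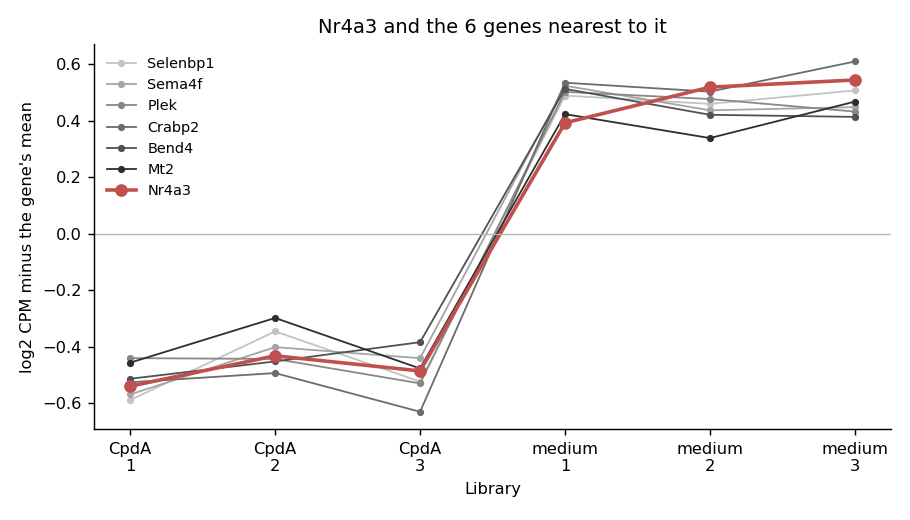
Level of Nr4a3 (red) and of the 6 genes nearest to it (grey) in each library, as log2 CPM minus the gene's own mean (vertical axis). Lines only join the points of a gene. The profiles lie below 0 in the CpdA libraries and above 0 in the medium libraries, and Nr4a3 runs from -0.54 in CpdA replicate 1 to 0.54 in medium replicate 3.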

How the data were processed

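Per the file headers, the authors deposited whole-number counts for every gene and library beside FPKM values. The FPKM values equal the count scaled by the deposited gene length and the library total within a relative difference of 1.86e-07. The column of gene lengths, another value deposited by the authors, was used only for levels between genes. Libraries were made from 1 µg of RNA with an NEBNext Ultra RNA kit, per the labels' protocols. CASAVA 1.8 is listed, with GRCm38 and mm10 as builds, per the submitters' processing notes. Aligner, counter, annotation and strand use were not given in the sources used here.

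Counts were tested in R 4.3.3 with edgeR 4.0.16 (quasi-likelihood test, TMM scaling, filterByExpr with a minimum count of 10 and total of 15, no covariates), which left 13507 of 21139 genes. P-values were adjusted over all of them by the Benjamini-Hochberg method. SE values are the fold change divided by the root of F. CPM values are scaled by the library total. Steps were tested on simulated counts. DESeq2 1.42.0 and limma-voom (limma 3.58.1) were run beside it, as were other scalings and filters, a replicate block and the omission of each library. The 10 genes and the lists were chosen with earlier results of these data known. Named genes are the 10, a fixed set, up to 4 called genes with the smallest p in each direction from each list, and the 6 nearest to Nr4a3. Cdkn1a, Il2, Csf1r, Cd14, Lyz2, Ncr1, Klrb1c, Klra8, Klrd1, Eomes, Cd68, Itgam, Cd4, Cd3e, Cd5, Cd2, Lck, Nemp1 and Gm16229 lie outside this rule and were named after their values were seen. A few genes under this rule are left unreported. Gene models are from GENCODE M21 and promoters from RefSeq, both GRCm38.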

Additional observations from a re-analysis of the deposited data

How the results depend on the processing

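Of 130 values of the 10 genes under the 13 alternatives, 128 kept their direction and their side of the threshold. The other 2 are those of Egr2 without CpdA replicate 2 (-0.10, edgeR adjusted p = 0.130) and without medium replicate 1 (-0.11, edgeR adjusted p = 0.127). Over the 63 named genes, 793 of 816 values kept both, 17 lost the threshold, 3 passed it newly and 3 changed sign, none of the last in a called gene: Nfatc3 without medium replicate 3 (0.011) and S1pr1 without CpdA replicate 1 (0.040) or medium replicate 1 (0.0081). With a library left out the log2 fold change of Nfatc3 ran from -0.046 to 0.011 and that of S1pr1 from -0.068 to 0.040. Genes called over the whole table numbered 2231 higher and 2252 lower. With a library left out they numbered 1815 to 2180 higher and 1837 to 2156 lower, and with DESeq2 1812 and 1833. In the RAS, ERK and SRF list, the higher genes were 1 to 3 and the lower genes 2 to 4 with a library left out. In the calcium list the lower genes were 5 to 9, and in the list of reported EGR2 and EGR3 targets the higher genes were 0 to 1.

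Replicate numbers are shared between the groups, but nothing in the labels says that they pair libraries, and the deviations of same-numbered libraries correlated at -0.218, -0.349 and -0.0474. None of the 6 libraries correlated best with its own number (0 of 6). With the replicate block, 1927 genes were higher and 2009 lower, the counts among the 10 genes were 2 and 7 as before, and 1 gene in place of 2 was higher in the RAS, ERK and SRF list. The cause of these shifts was not tested. In the 150 bases of each window directly before its transcription start, the 4 CRE cores of each NR4A window came to 2 for Nr4a1, 3 for Nr4a2 and 1 for Nr4a3. For Nr4a3 that start is later than the start of the deposited gene model, so its number depends on the start used. At this depth Egr4, Tox and Zbtb16, with few counts, allow only large differences to be seen. Levels were measured once, after 2 days, and earlier times are not analysed here.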
